A study of Mus musculus with 11 samples.

Results

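Wnt signalling was described through 34 genes chosen by name: 6 Wnt ligands, the ligand acyltransferase Porcn, 9 Frizzled receptors with the co-receptors Lrp5 and Lrp6, 5 secreted inhibitors, 4 genes of the R-spondin and Lgr branch, Axin1, Axin2 and Ctnnb1, and the 4 TCF/LEF transcription factors. Of these genes, 33 had a named probe set among 18193 measured genes. Tcf7, which encodes a TCF factor, had none. Each gene was read through its brightest probe set, by mean log2 signal over all arrays. The rule for choosing genes names them and uses no measured value, but the list was made with earlier results of these data known.

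The tissue was embryonic day 17 mouse kidney, with 1 Affymetrix 3' expression array per sample and 11 arrays in all. The array titles formed the series E17R2, R2E17 and R2NB. E17R2 had 3 wild-type arrays (numbered 1, 3 and 7) and 3 Robo2 homozygous arrays (2, 8 and 9), R2E17 had 1 wild-type and 1 Robo2 homozygous array, and R2NB had 3 Robo2 homozygous arrays (3, 4 and 5). Robo2 encodes a receptor for Slit guidance proteins. The labels name neither the kind of Robo2 allele, the strain nor the meaning of NB. They also do not say whether samples came from separate animals, so p-values measure only the spread between these arrays, which may be technical. Free-text fields of the labels describe human brain tissue, against the organism and tissue fields, which name mouse kidney.

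Wnt ligands are secreted after acylation by Porcn and bind Frizzled receptors together with Lrp5 or Lrp6. In the canonical branch this stabilises β-catenin, encoded by Ctnnb1, which acts with TCF/LEF factors on target genes such as Axin2. Dkk and Sfrp proteins are secreted antagonists, and R-spondins acting through Lgr receptors prolong the presence of Frizzled at the cell surface. In the developing kidney, Wnt9b from the ureteric bud induces nephron progenitors, Wnt4 drives their epithelial transition, Wnt11 acts at ureteric tips and Wnt7b in the collecting duct trunk.

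The arrays came in sets that differed in scale. Median probe-set intensity was 23.4 to 24.5 on the 6 E17R2 arrays and 46.8 to 53.2 on the 5 R2E17 and R2NB arrays, so levels were compared only within a set. All 10 measured kidney-defining markers were above background on every array. Robo2 was below background on every array, with log2 signals of 3.13, 3.68 and 3.16 on the E17R2 wild-type arrays and 2.03, 2.37 and 2.33 on the homozygous arrays (-1.08 ± 0.18 SE, limma, adjusted p = 0.84). It was also lower on the R2E17 homozygous array, at 3.37 against 3.96, while the R2NB arrays had 3.28, 3.86 and 3.99. E17R2 homozygous array 9 stood apart, with a summed intensity of 10 smooth muscle markers of 36090 against 3769 to 5154 on the other E17R2 arrays and with the smallest sum of kidney-defining markers. Adrenal cortex markers were high on E17R2 wild-type arrays 1 and 3 and R2NB array 4, and part of them on homozygous array 2. Hsd3b1, a steroid enzyme, had log2 signals of 10.58 and 10.38 on those wild-type arrays and 12.22 on R2NB array 4. It had 8.90 on homozygous array 2 and at most 5.44 elsewhere. On homozygous array 2 the adrenal markers Cyp11b1, Cyp21a1 and Mc2r had 4.76, 5.58 and 5.15, against 9.87, 7.49 and 7.48 on wild-type array 1. The 6 gonad markers summed to 541 on homozygous array 2, against 140 to 220 on the other E17R2 arrays. The part of these tissues was not tested. The Y-linked gene Kdm5d had 6.34 on wild-type array 7 and 6.93 on homozygous array 2, against 1.99 to 2.38 on the other E17R2 arrays, so each genotype held both kinds of sample. In whole kidneys, fewer cells of a type and less RNA per cell cannot be told apart.

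The first question was which of the 33 listed genes gave signal in the E17 kidney. A gene was counted as expressed in a group when its signal on every array of that group exceeded the 90th percentile of 37 genes restricted to other tissues. By that rule 32 of the 33 genes were expressed in all 5 groups, against 63.0% of all genes. The exception was Wnt2b, a ligand, whose log2 signal was 2.94 to 3.74 on the E17R2 arrays and 3.73 to 3.84 on the others. The share of expressed genes describes this list and not the whole pathway. Of ligands outside the list, Wnt4 and Wnt11 were above background on every array, while Wnt1, Wnt3, Wnt8a and Wnt16 were below it on every array. With the brightest of the 37 genes as the threshold, 14 of the 33 genes remained. The share of all genes past that threshold was not computed, so this count has no background beside it. Brightness differs between probes, so these signals do not order the genes by transcript number.

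**Figure D1:**
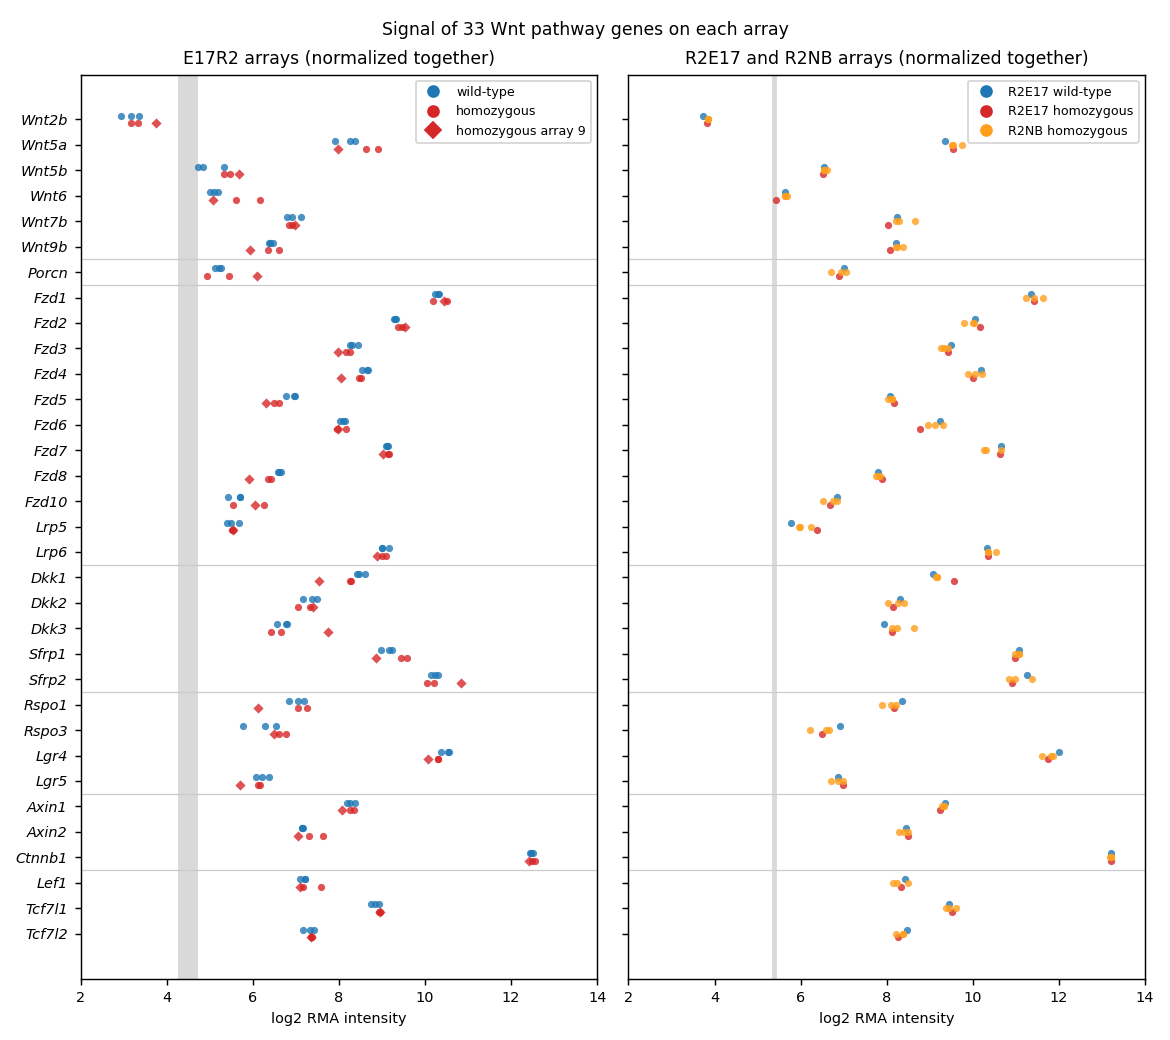
Log2 RMA intensity of each Wnt pathway gene (rows, grouped by role) on every array, with E17R2 arrays on the left and R2E17 and R2NB arrays on the right; the grey band spans the per-array background thresholds. Every gene but Wnt2b lies above the threshold of its array on all 11 arrays.

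Among ligands, Wnt5a, which acts mainly through noncanonical signalling, had log2 signals of 8.25, 8.37 and 7.91 on the E17R2 wild-type arrays and 8.90, 8.63 and 7.99 on the homozygous arrays. Homozygous arrays 2 and 8 were above all wild-type arrays and array 9 was among them. Its R2E17 values were 9.36 in wild-type and 9.55 in homozygous, and its R2NB values were 9.75, 9.55 and 9.51. Wnt7b varied little within E17R2, from 6.79 to 7.11, and had 8.24 and 8.03 on the R2E17 wild-type and homozygous arrays and 8.65, 8.29 and 8.21 on the R2NB arrays. Wnt9b had 6.48, 6.37 and 6.39 in wild-type and 6.36, 6.61 and 5.93 in homozygous E17R2 arrays, with array 9 the lowest. On the other set it had 8.21 and 8.07 on the R2E17 wild-type and homozygous arrays and 8.38, 8.23 and 8.21 on the R2NB arrays. Porcn, needed for Wnt secretion, had 5.13, 5.25 and 5.21 in E17R2 wild-type and 4.95, 5.46 and 6.10 in homozygous arrays, with array 9 the highest. On the R2E17 and R2NB arrays Porcn lay between 6.71 and 7.04.

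Among receptors, Fzd1 had 10.30, 10.22 and 10.32 in E17R2 wild-type and 10.18, 10.50 and 10.45 in homozygous arrays, so the genotypes overlapped. It had 11.36 and 11.41 on the R2E17 wild-type and homozygous arrays and 11.64, 11.24 and 11.41 on the R2NB arrays. Among secreted inhibitors, Sfrp2 had 10.24, 10.31 and 10.14 in E17R2 wild-type against 10.05, 10.20 and 10.83 in homozygous arrays, where only array 9 exceeded the wild-type values. Sfrp1, which binds Wnt ligands, had 9.17, 9.23 and 8.98 in wild-type and 9.45, 9.58 and 8.87 in homozygous E17R2 arrays, with arrays 2 and 8 above the wild-type values and array 9 below them. Ctnnb1 was among the most even genes, with 12.51, 12.47 and 12.44 in wild-type and 12.55, 12.49 and 12.42 in homozygous E17R2 arrays. Tcf7l1, a TCF factor known mainly as a repressor, had 8.84, 8.94 and 8.75 in wild-type and 8.96, 8.94 and 8.95 in homozygous E17R2 arrays. For both of the last genes the genotypes overlapped.

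The main comparison was Robo2 homozygous against wild-type kidney in E17R2, 3 arrays against 3. No Wnt pathway gene passed the threshold of an adjusted p of 0.05 in limma's moderated test, and neither did any of the 18193 genes (0.0%). The smallest adjusted p over all genes was 0.84, and 1019 genes (5.6%) had an unadjusted p under 0.05. Of the 33 pathway genes, 4 had an unadjusted p under 0.05, 3 of them lower in homozygous kidneys (Fzd5, Fzd8 and Lgr4; 3.08% of all genes) and 1 higher (Wnt5b; 2.52%). The median difference over the 33 genes was 0.02 log2, with 15 below 0, beside -0.01 over all genes. Without homozygous array 9 that median was 0.03, with 13 below 0, and it was at most 0.07 with any 1 E17R2 array left out. With single E17R2 arrays left out, the count of 4 became 1 to 7, with 1 without wild-type array 1, 2 without wild-type array 7, 6 without homozygous array 2 and 7 without homozygous array 9.

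The sums of 3 marker lists did not overlap between the genotypes in E17R2. The 10 kidney-defining markers summed to 3924, 4086 and 3841 in wild-type and 3465, 3324 and 2064 in homozygous arrays, lower on every homozygous array. The 8 markers of ureteric trunk and collecting duct summed to 3062, 2997 and 3081 against 2838, 2842 and 2117, also lower on each. Calb1 was the brightest marker in this sum. The median marker of this list, relative to the median gene of each array, overlapped between the genotypes, with homozygous array 8 the highest. That of the kidney-defining list did not overlap. Krt19 had log2 signals of 7.26, 7.67 and 7.85 in wild-type and 7.20, 7.92 and 8.56 in homozygous arrays. The 12 stroma markers summed to 23837, 23516 and 22112 against 25734, 25459 and 30714, higher on each. The collagens Col1a2 and Col3a1 were the brightest markers in this sum. The median stroma marker overlapped between the genotypes, with homozygous array 2 just below wild-type array 1. Foxd1 overlapped too, with log2 signals of 8.44, 8.38 and 7.89 in wild-type and 8.41, 8.17 and 7.77 in homozygous arrays. All members of these lists were above background on every array, and their part in the differences of Wnt pathway genes was not tested.

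Fzd5, a Frizzled receptor, had the smallest p of the pathway genes. Its log2 signals were 6.98, 6.95 and 6.77 in wild-type and 6.50, 6.61 and 6.30 in homozygous arrays, with every homozygous array below every wild-type array. The difference was -0.43 ± 0.11 (SE, n = 3 and 3), with an adjusted p of 0.84 in limma. Fzd8, another Frizzled receptor, had 6.60, 6.58 and 6.65 against 6.42, 6.34 and 5.92, also without overlap. On the R2E17 and R2NB arrays both receptors were even, Fzd5 between 8.03 and 8.18 and Fzd8 between 7.76 and 7.90. The E17R2 difference of Fzd8 was -0.38 ± 0.14 (limma, adjusted p = 0.84), and it was -0.23 without homozygous array 9.

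Fzd3 and Fzd4 also had every homozygous array below every wild-type array, by -0.20 ± 0.10 and -0.29 ± 0.14, which became -0.12 and -0.14 without array 9. Fzd2 was the only pathway gene with every homozygous array above, at 9.37, 9.47 and 9.54 against 9.29, 9.33 and 9.28. Fzd10 differed by 0.34 ± 0.19 with overlap, and Fzd1, Fzd6, Fzd7, Lrp5 and Lrp6 differed by -0.08 to 0.10. Over the 11 receptors the median difference was -0.06, with 7 below 0, and -0.02 without array 9. Counted over all 33 genes, 6 were lower without overlap (Fzd3, Fzd4, Fzd5, Fzd8, Dkk1 and Lgr4), beside 7.24% of all genes, and 1 was higher, beside 5.05%. Among expressed genes alone those backgrounds were 9.73% and 4.28%.

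**Figure D2:**
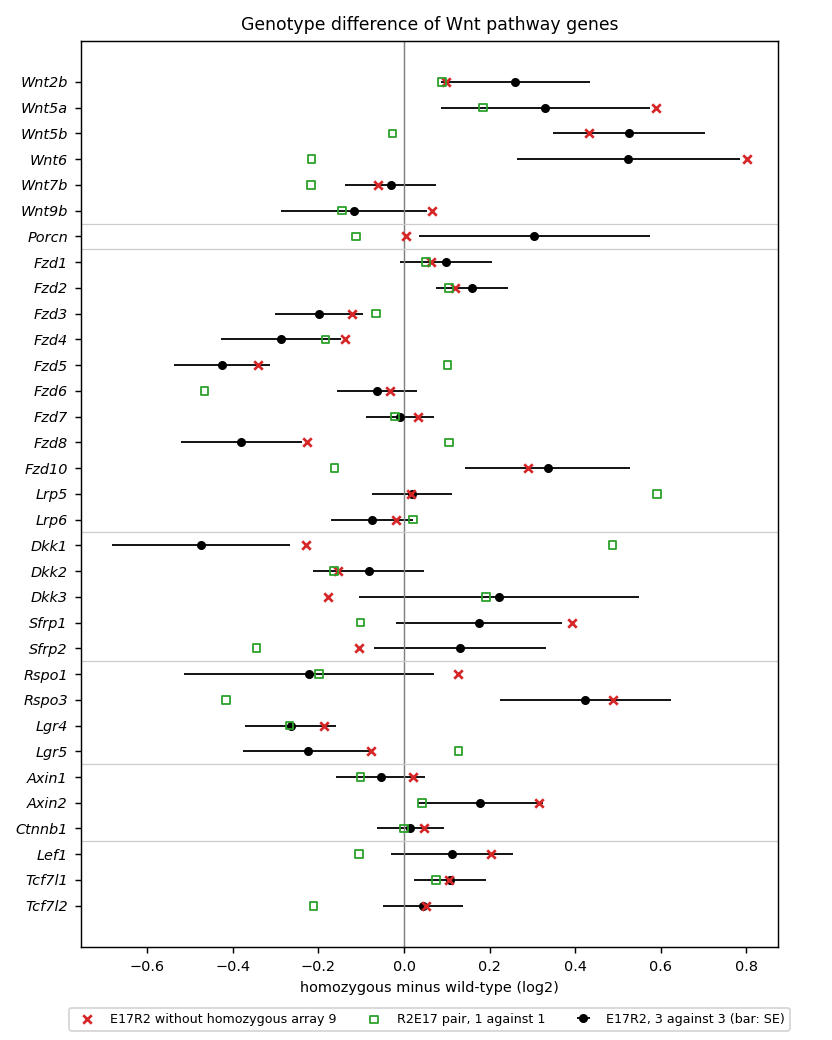
Homozygous minus wild-type log2 difference of each Wnt pathway gene (rows) in E17R2 (black points, mean difference with SE bars, 3 against 3 arrays), in E17R2 without homozygous array 9 (red crosses) and in the single R2E17 pair (green squares). Fzd5 at -0.43 and Wnt5b at 0.53 lie away from 0 in E17R2, while their R2E17 differences are 0.10 and -0.03.

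Of the ligands, Wnt5b had the higher mean in homozygous kidneys, with 4.72, 5.32 and 4.84 in wild-type and 5.46, 5.32 and 5.67 in homozygous arrays. Wild-type array 3 and homozygous array 8 had nearly the same signal, so the genotypes touched. The difference was 0.53 ± 0.18 (limma, adjusted p = 0.84), and 0.43 without homozygous array 9. A second Wnt5b probe set differed by 0.12. Wnt6, a ligand made by epithelia, had 5.01, 5.09 and 5.18 against 6.17, 5.62 and 5.07, with homozygous array 9 inside the wild-type range. The 6 ligands had a median difference of 0.30, with 2 below 0. They include Wnt2b (0.26), which was below background on every array. Wnt5b was near background in E17R2, with thresholds of 4.46 and 4.58 on wild-type arrays 1 and 7. The Wnt6 signals of 5.01 on wild-type array 1 and 5.07 on homozygous array 9 had thresholds of 4.46 and 4.71.

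Of the inhibitors, Dkk1, which blocks Lrp5 and Lrp6, had 8.46, 8.61 and 8.42 in wild-type and 8.28, 8.26 and 7.53 in homozygous arrays. All homozygous arrays were lower, by -0.47 ± 0.21 on average (limma, adjusted p = 0.84), and by -0.23 without array 9. A second Dkk1 probe set differed by -0.50. Dkk2, Dkk3, Sfrp1 and Sfrp2 all overlapped between genotypes. Dkk3, a divergent Dkk family member, had 6.78, 6.80 and 6.57 in wild-type against 6.43, 6.66 and 7.74 in homozygous arrays, with only array 9 above the wild-type values. Over the 5 inhibitors the median was 0.13, with 2 below 0. It turned to -0.15, with 4 below 0, without array 9.

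In the R-spondin and Lgr branch, the receptor Lgr4 had 10.54, 10.56 and 10.37 in wild-type and 10.30, 10.31 and 10.07 in homozygous E17R2 arrays. The homozygous arrays were all lower, with a difference of -0.27 ± 0.11 (limma, adjusted p = 0.84), and -0.19 without array 9. In the R2E17 pair Lgr4 was lower by the same amount, -0.27, at 11.74 in homozygous against 12.01 in wild-type. The R2NB arrays had 11.60, 11.85 and 11.82. Rspo3, an R-spondin ligand, had 6.28, 6.54 and 5.77 in E17R2 wild-type and 6.61, 6.76 and 6.49 in homozygous arrays, where array 9 was below wild-type array 3. Rspo1 had 7.05, 7.20 and 6.85 against 7.27, 7.05 and 6.12. Lgr5, Rspo1 and Rspo3 differed by -0.23, -0.22 and 0.42 in E17R2, with overlap in each, and by -0.08, 0.13 and 0.49 without array 9. Axin1, Ctnnb1 and the 3 measured TCF/LEF genes differed by -0.05 to 0.11. In a joint fit with a title-series term, the genotypes were compared over E17R2 and R2E17, 4 arrays against 4. That fit held all 11 arrays, so the R2NB arrays, with their own coefficient, added to the variance estimate. No gene passed an adjusted p of 0.05 in limma. There 4 of the 33 genes had an unadjusted p under 0.05 (4.81% of all genes), 3 of them lower (Fzd4, Fzd5 and Lgr4; 2.22%) and 1 higher (Wnt5b; 2.59%).

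After a filter that left out the windows of listed genes on a single chromosome, the RefSeq promoter table (GRCm38.p6) gave windows for 20 of the 34 genes. These were 28 windows in all. The 250 bases upstream of the start were searched on both strands for CTTTGAT and CTTTGAA, the core letters bound by TCF/LEF factors. Shown, 5′ to 3′ with a match in capitals, are the windows with a match, those of Dkk1 and Wnt5b. For comparison, those of Fzd5 and Lgr4 are shown, which held none. Like Dkk1 and unlike Wnt5b, these genes lay lower without overlap in homozygous kidneys. Fzd4 lay lower too, and its window, not shown, held none. Fzd3 and Fzd8, lower without overlap as well, had no window among those searched. The windows are those of Dkk1 (chr19:30549497-30549746, minus strand), Wnt5b (chr6:119449387-119449636, minus strand, 1 of its 3 windows shown because it alone matched), Fzd5 (chr1:64737751-64738000, minus strand) and Lgr4 (chr2:109917397-109917646, plus strand).
Dkk1: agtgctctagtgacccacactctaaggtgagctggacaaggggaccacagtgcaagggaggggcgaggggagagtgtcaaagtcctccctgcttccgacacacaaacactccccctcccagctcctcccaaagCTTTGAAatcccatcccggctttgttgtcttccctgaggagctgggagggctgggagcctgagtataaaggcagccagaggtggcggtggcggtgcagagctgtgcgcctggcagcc
Wnt5b: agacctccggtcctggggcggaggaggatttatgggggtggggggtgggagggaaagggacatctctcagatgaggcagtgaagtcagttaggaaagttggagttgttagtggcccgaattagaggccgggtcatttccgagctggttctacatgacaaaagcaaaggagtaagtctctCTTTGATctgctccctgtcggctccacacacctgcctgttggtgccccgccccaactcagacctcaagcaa
Fzd5: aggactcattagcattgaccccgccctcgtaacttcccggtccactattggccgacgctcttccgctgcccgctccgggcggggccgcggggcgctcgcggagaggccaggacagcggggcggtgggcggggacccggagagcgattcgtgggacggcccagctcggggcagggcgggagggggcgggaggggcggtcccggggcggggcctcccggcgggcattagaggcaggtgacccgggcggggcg
Lgr4: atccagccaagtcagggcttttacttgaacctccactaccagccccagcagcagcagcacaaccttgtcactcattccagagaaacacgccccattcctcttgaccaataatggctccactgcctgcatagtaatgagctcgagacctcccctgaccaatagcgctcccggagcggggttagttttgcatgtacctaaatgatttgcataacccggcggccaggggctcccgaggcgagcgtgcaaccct

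Dkk1 matched CTTTGAA 117 bases upstream and Wnt5b matched CTTTGAT 71 bases upstream, the only matches among the 28 windows. Of all 32851 windows of that length, taken without the filter by chromosome, 2457 (7.48%) held either motif. The share of bases that were G or C was 60.8% for Dkk1, 55.6% for Wnt5b, 76.4% for Fzd5 and 55.6% for Lgr4. The arrays do not show which start was used.

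Target genes were then followed as a readout of the canonical branch, 11 genes measured of 12 listed. Their median genotype difference in E17R2 was 0.11, with 4 below 0, beside 0.02 over the 33 genes above. Without array 9 it was 0.20, with 3 below 0. Nkd1 and Apcdd1, both feedback inhibitors induced by the pathway, were higher in every homozygous array. Nkd1 had 7.86, 7.85 and 7.70 in wild-type against 7.89, 8.48 and 8.22 (0.39 ± 0.16, limma, adjusted p = 0.84). Apcdd1 had 8.79, 8.85 and 8.81 against 9.08, 9.58 and 8.997 (0.40 ± 0.16, limma, adjusted p = 0.84).

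Ccnd1, a cell-cycle gene, and Myc, a growth regulator, were lower in every homozygous array, by -0.26 and -0.14. Without array 9 the difference of Ccnd1 was -0.14. Axin2, the most widely used readout, had 7.14, 7.15 and 7.17 in wild-type and 7.31, 7.63 and 7.06 in homozygous arrays. Arrays 2 and 8 were above the wild-type values and array 9 was below them. Its R2E17 signals were 8.44 (wild-type) and 8.48 (homozygous), and its R2NB signals were 8.50, 8.40 and 8.29. In the R2E17 pair, Nkd1 and Apcdd1 differed by -0.29 and -0.26, opposite in sign to E17R2.

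E17R2 homozygous array 9 differed from the other homozygous arrays in many of the pathway genes. Against the mean of arrays 2 and 8 it was lower by more than 0.5 log2 in 6 of 33 genes (5.12% of all genes) and higher in 3 (6.43%). The lower genes were Rspo1 (-1.04), Wnt6 (-0.83), Wnt5a (-0.78), Dkk1 (-0.74), Sfrp1 (-0.65) and Wnt9b (-0.55). The higher genes were Dkk3 (1.20), Porcn (0.90) and Sfrp2 (0.70). All 4 genes of the R-spondin and Lgr branch were lower on array 9, and 10 of the 11 target readouts were, with a median of -0.32 beside -0.04 over all genes. All 10 smooth muscle markers were higher on that array, Actg2 at 12.76 against 5.34 to 7.09. The 5 urothelium markers also summed highest there, to 1054 against 226 to 461 on the other E17R2 arrays. Skeletal muscle markers summed to 1615 on array 9, 2139 on wild-type array 7 and 689 on homozygous array 2. On the remaining E17R2 arrays they summed to 94 to 214. The part of these tissues in the differences was not tested.

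Without array 9, 2 homozygous arrays stood against 3 wild-type, and again no gene passed an adjusted p of 0.05, beside 1053 genes (5.79%) with an unadjusted p under 0.05. Wnt5a then differed by 0.59, Wnt6 by 0.80, Sfrp1 by 0.39, Axin2 by 0.32, Fzd5 by -0.34 and Fzd8 by -0.23, with adjusted p from 0.82 to 0.85. Probe sets of Sfrp1 diverged in E17R2, where its 5 differed by -0.27 to 0.49 with array 9 included. The second brightest had 7.82 and 7.49 on homozygous arrays 2 and 8, against 7.47, 8.41 and 8.17 in wild-type. In those counts, 4 of 33 genes were higher (2.87% of all genes) and 3 were lower (2.91%), the third being Dkk1. Dkk3, Sfrp2, Rspo1, Wnt9b, Fzd7 and Axin1 changed sign without array 9, to -0.18, -0.10, 0.13, 0.07, 0.03 and 0.02.

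**Figure D3:**
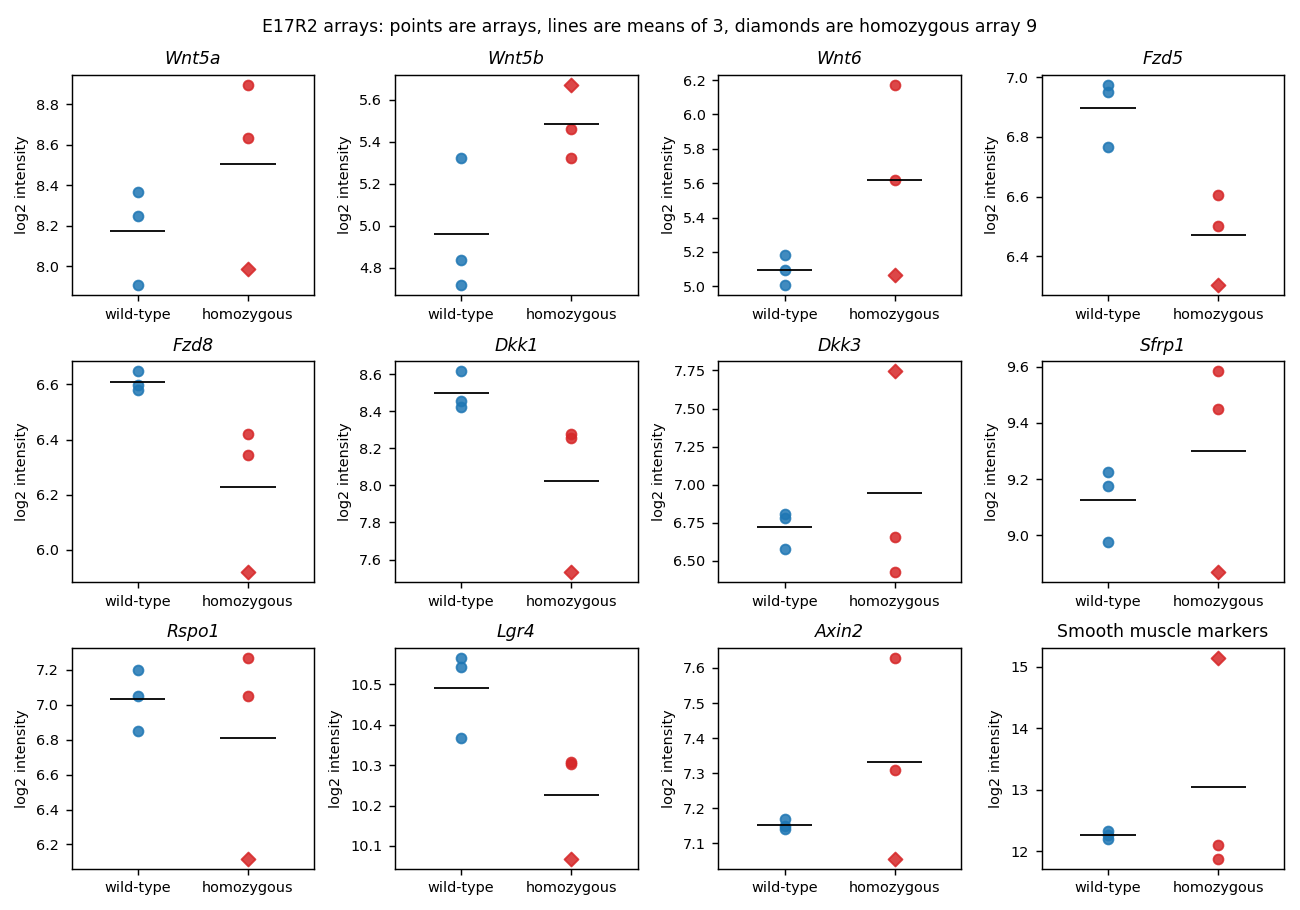
Log2 RMA intensity on the E17R2 arrays for 11 Wnt pathway genes and, in the last panel, log2 of the summed intensity of the smooth muscle markers; points are arrays, lines are means of 3 and diamonds mark homozygous array 9. Fzd5, Fzd8, Dkk1 and Lgr4 are lower on every homozygous array. For Wnt5a, Dkk1, Dkk3, Sfrp1 and Rspo1 array 9 lies apart from the other homozygous arrays, and for Wnt6 and Axin2 it is the lowest of them.

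The R2E17 pair gave 1 wild-type and 1 homozygous array and hence no test. Of the 33 genes, 1 was higher in homozygous by more than 0.5 log2 (8.0% of all genes) and 0 were lower (3.7%). That gene was the co-receptor Lrp5, at 6.37 against 5.78, while the R2NB arrays had 6.23, 5.99 and 5.97. Dkk1 differed by 0.49, at 9.56 against 9.08, opposite in sign to its E17R2 difference, and Fzd5 differed by 0.10. Fzd6 differed by -0.47, Rspo3 by -0.42 and Sfrp2 by -0.34. The median over the 33 genes was -0.06. The pair also differed in markers of other tissues. The 6 skeletal muscle markers summed to 2447 on the homozygous array, with 5 of them above background, and to 178 on the wild-type array, with 1 above. The 5 urothelium markers summed to 515 and 1040, all above background on both. The part of these tissues in the pair's differences was not tested.

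Probe sets of a gene diverged in this pair. Ctnnb1 differed by 0.00 at its brightest probe set and by 0.80 and 1.22 at its others, and the probe sets of Sfrp1 ranged from -0.90 to 1.74. Over the 13 genes with several probe sets above background, the range between probe sets had a median of 0.37 to 0.53 in the 4 pairs of arrays that include the R2E17 wild-type array. In the 6 other pairs of that set it was 0.13 to 0.24, and in the 15 pairs within E17R2 it was 0.09 to 0.31. Over all 4470 such genes the same medians were 0.30 to 0.42, 0.13 to 0.24 and 0.16 to 0.26. Signal at the 3' control probe set of Gapdh exceeded that at its 5' one by 0.70 log2 on the R2E17 wild-type array, with 0.22 the highest of the other 10 arrays. For Actb these values were 1.12 and 0.75. The part of RNA integrity in the pair's differences was not tested.

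The difference of the genotype differences between E17R2 and R2E17 passed an adjusted p of 0.05 in limma for 3 of 18193 genes (0.0165%), none of them a Wnt pathway gene. At an unadjusted p under 0.05, 3 of the 33 genes were listed, beside 11.1% of all genes, and all 3 were below 0 (8.57% of all genes, with 2.5% above). They were Dkk1 (E17R2 minus R2E17, -0.96), Lrp5 (-0.57) and Fzd5 (-0.53), with adjusted p from 0.35 to 0.38. All 3 rest on the single R2E17 arrays. With single E17R2 arrays left out the count was 2 to 6, with 2 without wild-type array 1, 5 without homozygous array 2 and 6 without homozygous array 9.

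The R2NB arrays were compared with the R2E17 homozygous array, 3 against 1 within their own set, with the lone array assumed to vary like the others. No gene passed an adjusted p of 0.05 in limma (0.0%), beside 1329 genes (7.31%) with an unadjusted p under 0.05. Of the 33 genes, 1 was lower (3.88%) and 1 higher (3.43%) at an unadjusted p under 0.05, a count of 2 that became 7 without R2NB array 3. Dkk1 had 9.13, 9.17 and 9.17 against 9.56 (-0.40, limma, adjusted p = 0.54), while the R2E17 wild-type array had 9.08. Wnt6 had 5.63, 5.68 and 5.63 against 5.42 (0.23, limma, adjusted p = 0.56). The Wnt6 signals were near background, whose threshold was 5.38 on the R2E17 homozygous array and 5.39 to 5.42 on the R2NB arrays. Between any 2 arrays of this set 1646 to 2270 genes had identical values, against 37 to 73 within E17R2. The part of such ties in these small spreads was not tested. Skeletal muscle markers summed to 144 and 133 on R2NB arrays 3 and 4 and to 2981 on R2NB array 5, against 2447 on the R2E17 homozygous array, and their part was not tested. The Y-linked gene Kdm5d had log2 signals of 7.24 to 7.52 on the R2NB arrays and 3.13 on the R2E17 homozygous array, so sex and group cannot be told apart.

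The R2E17 and R2NB arrays were last set against the E17R2 arrays, each gene relative to the median gene of its array. Title series and normalization cannot be told apart here, and no test was made. Among the 33 genes, 4 lay higher in all 5 R2E17 and R2NB arrays than in all 6 E17R2 arrays (12.4% of all genes) and 6 lay lower (30.2%). Among expressed genes alone the backgrounds were 15.5% and 18.2%, and after quantile normalization over all 11 arrays 4 genes were higher (17.1%) and 5 lower (17.1%). The median contrast was -0.09 over the 33 genes and -0.17 over all genes.

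The higher genes were Wnt9b, Sfrp1, Fzd4 and Lrp6, with contrasts of 0.68, 0.63, 0.40 and 0.17. Relative to the median gene, Wnt9b lay at 0.55 to 0.90 on the R2E17 and R2NB arrays and at -0.31 to 0.31 on the E17R2 arrays. Sfrp1 lay 3.45 to 3.66 above the median gene in the former set and 2.63 to 3.29 above it in the latter.

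The lower genes were Wnt6 (-0.95), Wnt2b (-0.66), Lrp5 (-0.65), Tcf7l1 (-0.61), Fzd2 (-0.57) and Ctnnb1 (-0.47). After quantile normalization the contrasts of Ctnnb1 and Wnt2b were -0.15 and -0.22. Those of Wnt6, Lrp5, Tcf7l1 and Fzd2 were then -0.81, -0.58, -0.60 and -0.55. Wnt6 lay -2.10 to -1.77 from the median gene in the R2E17 and R2NB arrays and -1.27 to -0.11 in the E17R2 arrays. In the former set it was near background. A second Wnt6 probe set, above background on 2 of the E17R2 arrays, had a contrast of -0.06. Lrp5 lay -1.63 to -1.15 against -0.87 to -0.68, and Fzd2 lay 2.31 to 2.65 above the median gene against 2.98 to 3.31. Tcf7l1 lay 1.88 to 2.11 against 2.45 to 2.72. Rspo3 had the largest contrast of all, -1.02, but its sets overlapped. Wnt2b was below background throughout, and its sets overlapped after quantile normalization. With the mean over each gene's probe sets, 2 genes were higher and 9 lower, and Wnt9b, Sfrp1, Lrp6, Wnt6 and Ctnnb1 were no longer among them.

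**Figure D4:**
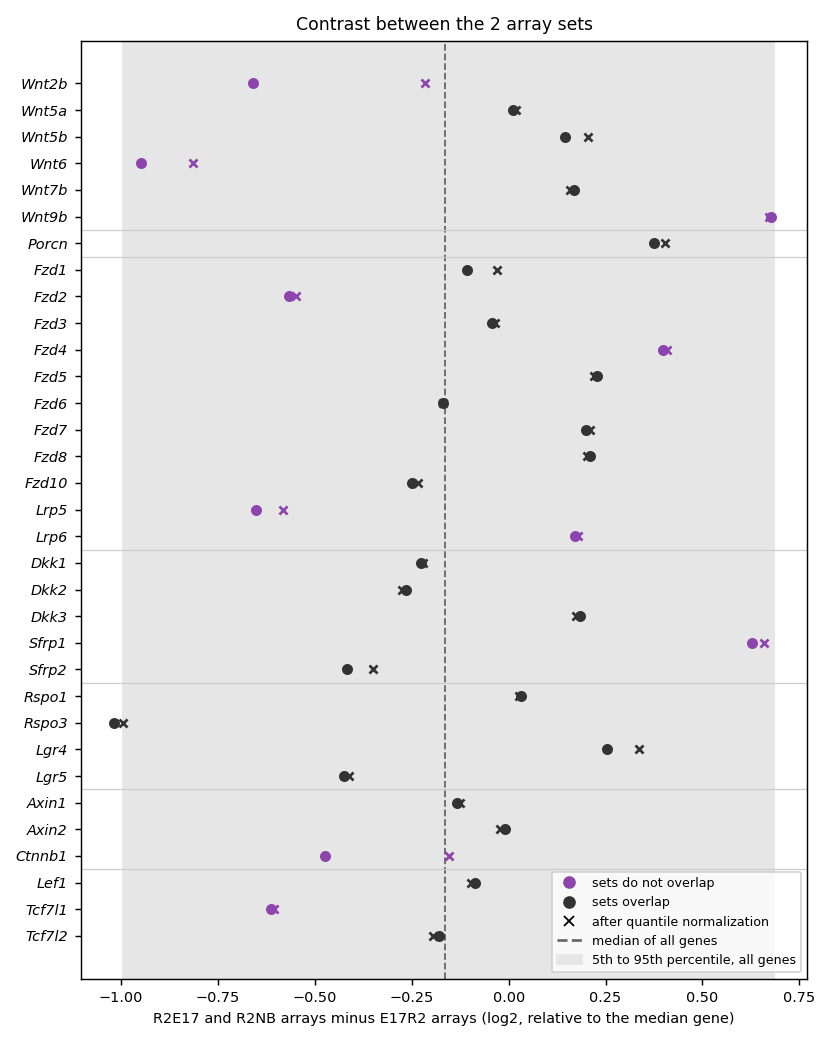
Contrast of the R2E17 and R2NB arrays with the E17R2 arrays for each Wnt pathway gene (rows), in log2 relative to the median gene of each array; filled points are purple where the sets do not overlap, crosses are values after quantile normalization, the dashed line is the median of all genes and the grey area spans their 5th to 95th percentile. Wnt9b and Sfrp1 lie at the high end, and Wnt6 and Rspo3 at the low end.

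The other genes of the pathway were taken from a list of 74, of which 73 were measured. In E17R2, 0 passed an adjusted p of 0.05, while 4 were lower (3.08% of all genes) and 5 higher (2.52%) at an unadjusted p under 0.05. Frzb, a secreted Frizzled-related antagonist, had 7.55, 7.67 and 7.37 in wild-type and 6.88, 6.97 and 6.49 in homozygous arrays (-0.75 ± 0.15, limma, adjusted p = 0.84). Sostdc1, an antagonist of Wnt and BMP signalling, had 10.17, 10.25 and 9.89 against 9.67, 9.77 and 9.09 (-0.59 ± 0.20, limma, adjusted p = 0.84). Both were lower in every homozygous array, and in the R2E17 pair they differed by -0.03 and -0.22. Without array 9 the difference of Sostdc1 was -0.38. Nkd2, a cytoplasmic inhibitor, differed by 0.96 in E17R2, with array 9 the highest at 6.94, and by 0.66 without array 9, and Dkkl1 differed by 0.23.

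Wnt4 had 9.19, 9.41 and 9.44 in wild-type against 9.36, 9.48 and 8.98 in homozygous E17R2 arrays, and Wnt11 had 7.35, 7.53 and 7.64 against 7.40, 7.61 and 6.80. Both overlapped between genotypes, with array 9 the lowest for each. In the contrast of the sets, the largest non-overlapping values of the list were -1.22 for Celsr3 and -1.06 for Fzd9. The next were 0.95 for the glypican Gpc4 and -0.92 for Wnt16. Celsr3, a planar polarity cadherin, and Fzd9 were below background on every R2E17 and R2NB array, and Wnt16 was below it on all 11 arrays.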

How the data were processed

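RNA from 11 mouse kidney samples was measured as biotin-labelled cRNA on Affymetrix arrays. The authors deposited linear intensity values. The submitters' processing notes name RMA, a background correction, quantile normalization and probe-set summary, and the labels give no version or options. Of 45101 probe sets, 64 controls were left out, and 34945 had 1 gene symbol, 932 several and 9160 none in the platform annotation. Symbols were updated through RefSeq GRCm38.p6, to which 34741 probe sets matched.

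Values were taken as log2 with no pseudocount and 1 probe set per gene, the highest mean over the arrays. Linear models and moderated two-sided tests came from limma 3.58.1 (R 4.3.3), with Benjamini-Hochberg adjustment over 18193 genes and a threshold of 0.05. The main fit used the 6 E17R2 arrays. The R2E17 pair and the contrast between sets had no test. The script was tested on simulated data. The number of arrays limits the precision.

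Genes and lists were chosen with earlier results of these data known. Values per array are given for the brightest gene of each role, for genes with an unadjusted p under 0.05, and for genes whose sets did not overlap by at least 0.5 log2. Wnt7b, Dkk3, Rspo1 and Rspo3 were added after their values were seen. Of other pathway genes, those named are the 4 with the smallest p, the 4 with the largest contrast, Wnt4, Wnt11 and target readouts. Alternatives varied the arrays in the fit, the probe-set rule, normalization, dim-gene filters, moderation and left-out arrays. The comparison of probe sets between arrays was added after the data were seen.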

Additional observations from a re-analysis of the deposited data

How the results depend on the processing

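In the E17R2 genotype comparison no Wnt pathway gene of the 33 reached the adjusted threshold of 0.05 (limma) under any alternative run. Differences that changed sign were as follows. With the mean over probe sets Wnt7b was 0.039, Wnt9b 0.013, Fzd6 0.12, Fzd7 0.10, Axin1 0.070 and Tcf7l2 -0.11. With quantile normalization Wnt7b was 0.017, Fzd7 0.028 and Ctnnb1 -0.0019, with median centring Wnt7b was 0.0037 and Fzd7 0.026, and in the 4 against 4 fit Tcf7l2 was -0.020. The median over pathway genes was -0.020 with dim genes left out. With each E17R2 array left out in turn, values ranged from -0.11 to 0.022 for Axin1, -0.015 to 0.048 for Ctnnb1, -0.17 to 0.018 for Dkk2, -0.18 to 0.48 for Dkk3, -0.037 to 0.033 for Fzd7, -0.043 to 0.20 for Lef1, -0.038 to 0.092 for Lrp5, -0.45 to 0.13 for Rspo1, -0.10 to 0.29 for Sfrp2, -0.024 to 0.10 for Tcf7l2, -0.11 to 0.055 for Wnt7b and -0.27 to 0.066 for Wnt9b. The count of genes past the adjusted threshold was 0 to 1 over these fits, the 1 call being made without wild-type array 7.

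For R2NB against R2E17 homozygous, the fit over all 11 arrays called 2 genes, and the median over pathway genes was -0.019 against the mean of both R2E17 arrays. The difference between the series' genotype effects called 0 genes with the mean over probe sets. In the R2E17 pair, 2 pathway genes passed 0.5 log2 with the mean over probe sets and also with median centring. The contrast of Lrp6 between the sets was -0.061 with the mean over probe sets. With the brightest reference gene as the threshold, an alternative chosen after seeing the data, 14 genes counted as expressed. The share of all genes was not computed there. The cause of these changes was not tested. No paired analysis was possible because the wild-type and homozygous groups share no replicate numbers in the E17R2 titles and 1 array each in R2E17.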

Other observations

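Planar polarity genes, which orient cells within a sheet and act beside noncanonical Wnt signalling, were also measured. Celsr1 differed by -0.38 (limma, adjusted p = 0.84) between genotypes in E17R2 and lay lower in every homozygous array, and Prickle2 differed by 0.26 (limma, adjusted p = 0.84) and lay higher in every homozygous array. Without homozygous array 9 these differences were -0.19 and 0.14. Of the 10 planar polarity genes measured, 4 had a difference below 0 and the median was 0.06. The 10 nuclear cofactors of the list differed by -0.05 to 0.10, and by -0.02 to 0.19 without array 9. Both genes named were chosen after their values were seen.

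On E17R2 homozygous array 9, Wnt2, a ligand made by mesenchyme, had a log2 signal of 7.31 against 3.55 to 4.04 on the other E17R2 arrays, and Lgr6, an R-spondin receptor, had 4.96 against 3.13 to 3.45. Both were below background on the other E17R2 arrays and above it on array 9, the array with the high smooth muscle markers. They were chosen after their values were seen, and the part of smooth muscle was not tested.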
